A study of Mus musculus with 90 samples.

Results

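The genes described here are 10 members of one signalling loop, namely the EGF receptor ligands Hbegf, Areg, Ereg and Tgfa and the feedback inhibitors Errfi1, Dusp4, Dusp6, Spry2, Spry4 and Spred1. They were chosen by symbol and make up 10 of the 53697 gene identifiers in the count matrix. The 3′ ends of transcripts were sequenced and counted per gene in 90 RNA samples from 2 mouse tumour cell lines, YUMM2.1 melanoma and CT26 colon carcinoma. Each line had 15 groups of 3 samples that the labels describe as triplicate experiments, so the spread reported is that between experiments on 1 line and not between tumours or animals. Cells had either no earlier exposure (0 weeks, here naive) or 1, 2 or 3 weeks of culture with BSA (control) or with 50 IU/mL IFNγ (chronic). Naive cells were taken untreated, or 2 h or 24 h after a first IFNγ dose, and chronic cells were taken with no new dose, or 2 h or 24 h after a fresh dose (rechallenge). The labels give no chronic group that was handled as for rechallenge but without fresh IFNγ, so the effects of IFNγ and of that handling cannot be told apart.

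EGF-family ligands are made as membrane proteins, are released by proteases of the ADAM family and bind receptors of the ERBB family, which signal through RAS, RAF, MEK and ERK. Active ERK induces transcription of inhibitors that act back on the same pathway: the ERRFI1 protein binds and blocks the EGF receptor kinase domain, DUSP6 and DUSP4 remove phosphate from ERK in the cytoplasm and nucleus, and Sprouty and Spred proteins act between the receptor and RAF. Several of the ligand genes are themselves transcribed after ERK activation. YUMM2.1 carries a mutant Braf, which lies below the receptor in this pathway.

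All 10 are protein-coding genes of the GRCm38 annotation (GENCODE M21). Areg (chromosome 5, 91139599 to 91148432) and Ereg (chromosome 5, 91074622 to 91093646) are neighbours on the plus strand. Errfi1 lies at chromosome 4, 150853919 to 150868892, and Dusp6 at chromosome 10, 99263231 to 99267489, both on the plus strand. RefSeq promoter windows (GRCm38.p6, 250 bases before to 50 after the start) were matched for 6 of the 10 members. Those of Errfi1 and Areg are shown because they held motifs at like positions, and that of Dusp6 because a gene that moved with Errfi1 held none of the motifs searched. Both strands were searched for the AP-1 site TGANTCA, the short cAMP response element (CRE) TGACG, the full CRE TGACGTCA, the ETS site CCGGAAG, the IFNγ-activated site TTCNNNGAA, the TATA box TATAAA and the CArG box. Matches are in capitals, and each full CRE also holds the short CRE on both strands.
Errfi1 (second of its RefSeq starts, chr4:150854820-150855119, plus strand): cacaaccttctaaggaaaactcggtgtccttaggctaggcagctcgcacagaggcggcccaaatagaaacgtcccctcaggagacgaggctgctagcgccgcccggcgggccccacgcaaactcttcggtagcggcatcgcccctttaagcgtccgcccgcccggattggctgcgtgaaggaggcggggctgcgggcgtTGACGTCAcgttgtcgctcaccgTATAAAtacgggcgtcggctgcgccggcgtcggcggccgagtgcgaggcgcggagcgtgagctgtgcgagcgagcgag
Areg (chr5:91139349-91139648, plus strand): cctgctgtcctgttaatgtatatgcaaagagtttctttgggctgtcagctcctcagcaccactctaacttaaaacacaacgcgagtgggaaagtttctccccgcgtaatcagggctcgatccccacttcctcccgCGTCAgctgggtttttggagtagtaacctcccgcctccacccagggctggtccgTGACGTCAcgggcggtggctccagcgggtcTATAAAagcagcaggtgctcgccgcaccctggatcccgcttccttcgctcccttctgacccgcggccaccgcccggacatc
Dusp6 (chr10:99262981-99263280, plus strand): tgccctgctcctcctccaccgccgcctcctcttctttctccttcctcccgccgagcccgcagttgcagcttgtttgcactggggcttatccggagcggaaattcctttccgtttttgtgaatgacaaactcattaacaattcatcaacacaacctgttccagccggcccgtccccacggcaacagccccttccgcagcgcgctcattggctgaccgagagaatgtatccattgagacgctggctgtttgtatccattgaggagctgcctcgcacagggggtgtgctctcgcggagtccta
Errfi1 had the full CRE 51 bases and the TATA box 28 bases before the start, and Areg had them 61 and 31 bases before it, with one more short CRE 115 bases before. Over all 32851 promoter windows, 1.79% held the full CRE, 20.8% the short CRE, 13.6% the TATA box, 7.81% the AP-1 site, 8.86% the ETS site, 8.3% the IFNγ-activated site and 1.63% the CArG box. The windows of Tgfa, Spry2 and Spred1 and the first Errfi1 window held none of the 7 motifs. A match describes these letters and is not evidence of binding.

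Total counts per sample ran from 274719 to 3161276 in YUMM2.1 (median 1403265) and from 295157 to 2205285 in CT26 (median 1318011). In 3 chronic samples without rechallenge the total was below 25% of the line's median: 1 of YUMM2.1 at 3 weeks, and 1 of CT26 at 1 week and 1 at 3 weeks. As a check of the labels, the IFNγ-induced genes Irf1 and Gbp2 rose 2 h after the first dose in both lines, by 4.07 and 3.94 on the log2 scale in YUMM2.1 and by 3.46 and 2.31 in CT26. Of 7 melanocyte genes in YUMM2.1, Sox10 had a median over 5 CPM (counts scaled to library size) and Tyrp1 was at 0 in every sample. Of 8 intestinal epithelial genes in CT26, Krt18 and Krt20 were over 5 CPM, while Epcam, Cdh1, Vil1 and Cldn7 were at 0. The summed level of 5 leukocyte genes was at most 4.96 CPM in any sample, with Cd3e at 0 throughout. Of 3 endothelial genes Pecam1 had a median over 5 CPM in both lines, and Cdh5 and Kdr were at 0 in CT26. Pecam1 was thus the whole endothelial sum in CT26, at 224 to 498 CPM. In YUMM2.1 the sum of the 3 genes was 271 to 524 CPM, against 16.3 to 58.5 CPM for the 7 melanocyte genes.

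Levels below are CPM per sample, differences are log2 fold changes from edgeR's quasi-likelihood test fitted over all 15 groups of a line, and a gene is called changed at a Benjamini-Hochberg adjusted p below 0.05 over all genes tested, which were 9589 in YUMM2.1 and 8516 in CT26. In YUMM2.1 9 members passed the filter on low counts (Tgfa did not), and in CT26 6 passed (Areg, Tgfa, Dusp4 and Spry2 did not). Among the members tested, the highest group mean was that of a 2 h rechallenge group for Hbegf, Areg, Errfi1, Dusp6, Spry4 and Spred1 in YUMM2.1. In CT26 this held for Hbegf, Ereg, Errfi1, Dusp6 and Spry4. The share of all genes with their highest mean there was not counted, so these lists are descriptive. Areg, Spry4 and Spred1 were not called at 2 h of rechallenge in any week. For Spry4 in CT26 the 2 highest means, 17.63 and 17.62 CPM, were nearly equal, the second without rechallenge. The plot of levels by group shows Hbegf, Ereg, Errfi1 and Dusp6 in both lines.

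**Figure D1:**
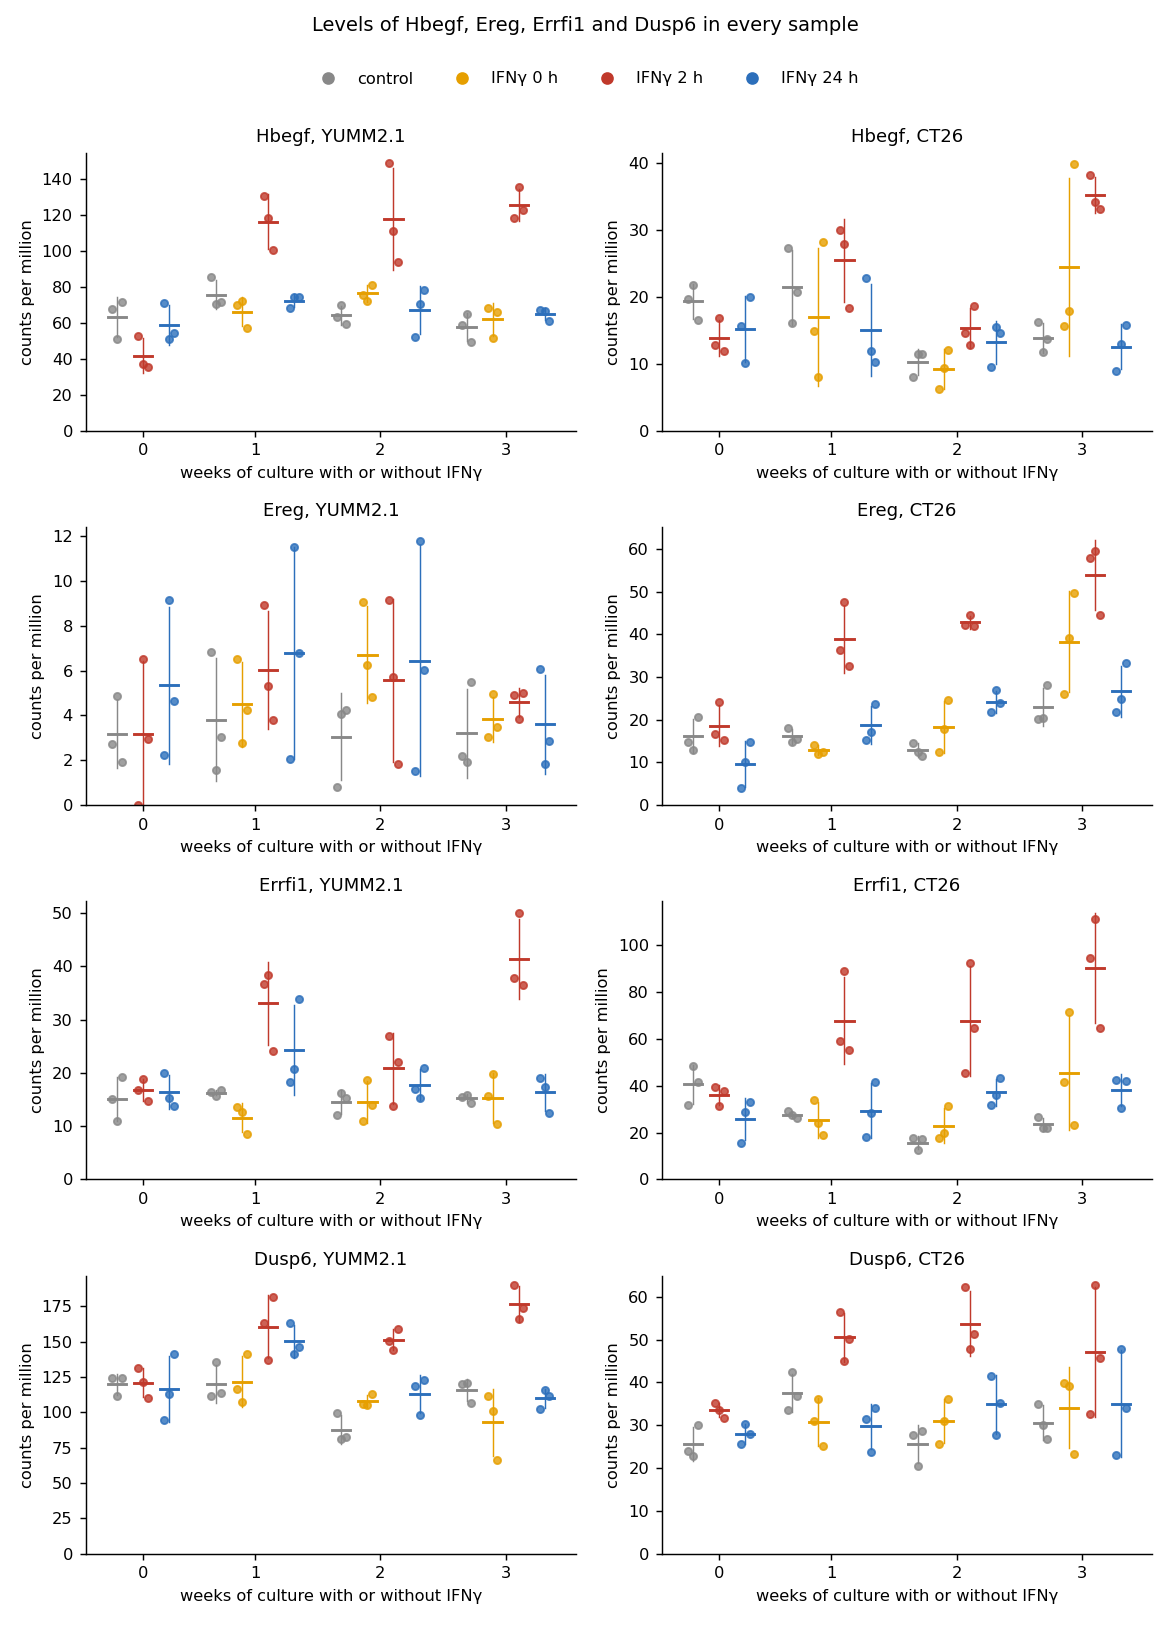
Level (CPM, linear axis from 0) of Hbegf, Ereg, Errfi1 and Dusp6 in each of the 15 groups of both lines. Each group has 3 points, the mean as a line and the SD as bars. Hbegf in YUMM2.1 shows 3 peaks at the rechallenge 2 h groups, with all 9 samples between 93.7 and 149 CPM and the other 36 at or below 85.4 CPM.

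A first dose of IFNγ moved none of the members tested past the threshold. RNA was taken from whole cultures, so a change in the share of cells that express a gene and a change of its level per cell cannot be told apart. At 2 h, 0 of 9 members tested were called in YUMM2.1 (1 at an unadjusted p below 0.05, 0 by DESeq2), where 0.240% of all genes were called by edgeR's quasi-likelihood test. In CT26 0 of 6 were called at 2 h (0 unadjusted, 0 by DESeq2), against 0.235% of all genes. At 24 h the counts were 0 of 9 in YUMM2.1 (1 unadjusted, 0 by DESeq2, background 0.886%) and 0 of 6 in CT26 (0 unadjusted, 0 by DESeq2, background 2.04%). The member with the low unadjusted p at 2 h was Hbegf, the gene for heparin-binding EGF-like growth factor. It stood at 50.9, 67.7 and 71.5 CPM in untreated naive YUMM2.1 cells and at 35.3, 37.0 and 53.0 CPM 2 h after IFNγ. The groups overlapped, and the log2 difference was -0.60 ± 0.18 (SE), with an adjusted p of 0.380 by edgeR's quasi-likelihood test. At 24 h it was Areg, the gene for amphiregulin, which stood at 4.85, 5.11 and 7.04 CPM in untreated and 12.2, 13.4 and 15.6 CPM in IFNγ-treated naive YUMM2.1 cells. Those groups did not overlap, but counts were low and the adjusted p of edgeR's quasi-likelihood test was 0.255 (log2 difference 1.25 ± 0.41).

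Chronic exposure without rechallenge gave 2 calls against the time-matched BSA controls, both in CT26. In YUMM2.1 0 of 9 were called at 1 week (0 unadjusted, 0 by DESeq2, background 0.730%), at 2 weeks (1 unadjusted, 0 by DESeq2, background 1.12%) and at 3 weeks (1 unadjusted, 0 by DESeq2, background 0.970%) by edgeR's quasi-likelihood test. In CT26 0 of 6 were called at 1 week (1 unadjusted, 0 by DESeq2, background 0.728%) and at 2 weeks (0 unadjusted, 0 by DESeq2, background 1.62%), and 2 of 6 at 3 weeks, when 7.28% of all genes were called. The 2 genes were Errfi1 and Spred1, which encodes a RAS pathway inhibitor. At 3 weeks Errfi1 in CT26 was 21.9, 21.9 and 26.8 CPM in the controls and 23.2, 41.7 and 71.5 CPM with IFNγ. Spred1 was 3.25, 3.41 and 5.12 CPM in the controls and 3.31, 9.56 and 22.3 CPM with IFNγ. For both genes 1 of the IFNγ samples lay within the range of the controls and the other 2 above it. That 1 was the low-depth sample, with 7 counts for Errfi1 and 1 for Spred1. Without the low-depth samples the log2 differences were 1.26 for Errfi1 (adjusted p = 0.00692) and 1.99 for Spred1 (adjusted p = 0.0211) by edgeR's quasi-likelihood test. The log2 differences were 1.08 ± 0.31 (adjusted p = 0.0209) for Errfi1 and 1.75 ± 0.56 (adjusted p = 0.0454) for Spred1 by edgeR's quasi-likelihood test. Against the 0-week control both calls were lost, and Ereg was called in their place (1.13 ± 0.27, adjusted p = 0.00459). The Errfi1 call was also lost without replicate 1 or replicate 2 or with only the compared groups fitted, and its difference ran from 0.28 to 1.31 over all alternatives. The Spred1 call was also lost by DESeq2 and without any 1 replicate, with differences of 1.23 to 1.99.

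Among the ligands, Hbegf (chromosome 18, 36504927 to 36515805, minus strand) rose 2 h after rechallenge in YUMM2.1. At 1 week it went from 57.1, 69.8 and 72.1 CPM without rechallenge to 100.4, 118 and 130.4 CPM at 2 h, and was back at 68.3, 74.4 and 74.6 CPM at 24 h. At 2 weeks the values were 72.2, 75.8 and 81.3 CPM, then 93.7, 111 and 149 CPM, then 52.4, 70.8 and 78.1 CPM. At 3 weeks they were 51.6, 66.1 and 68.5 CPM, then 118, 123 and 136 CPM, then 61.1, 66.8 and 67.0 CPM. In each of the 3 weeks every 2 h sample lay above every sample before rechallenge and every 24 h sample. All 9 rechallenge 2 h samples also lay above all 36 other samples of the line, of which the highest was a 1 week control at 85.4 CPM. Of the 9589 genes tested 7, or 0.0730%, were separated in this way. The log2 differences were 0.79 ± 0.17 at 1 week (adjusted p = 0.00581), 0.64 ± 0.16 at 2 weeks (adjusted p = 0.0560) and 1.02 ± 0.18 at 3 weeks (adjusted p = 0.000290) by edgeR's quasi-likelihood test. The 2 week difference was called by DESeq2 (adjusted p = 0.0426). The 1 week call was lost without replicate 1 or replicate 2 or with only the compared groups fitted, and the 3 week call without replicate 2, with differences of 0.73 to 0.89 and 0.83 to 1.20 over all alternatives.

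In CT26 Hbegf was low and more variable. At 1 week it went from 8.01, 14.8 and 28.2 CPM to 18.4, 27.9 and 29.99 CPM at 2 h, at 2 weeks from 6.20, 9.41 and 12.0 CPM to 12.8, 14.5 and 18.6 CPM, and at 3 weeks from 15.6, 17.9 and 39.8 CPM to 33.0, 34.1 and 38.1 CPM. The groups overlapped at 1 and 3 weeks and not at 2 weeks. In both weeks with overlap it came from the low-depth sample alone, at 28.2 CPM (9 counts) and 39.8 CPM (12 counts). None of the 3 differences, 0.78 ± 0.34, 0.69 ± 0.34 and 0.76 ± 0.32, was called by edgeR's quasi-likelihood test (adjusted p = 0.539, 0.703 and 0.610).

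Against no rechallenge at 2 h, Hbegf was called in CT26 only for the mean of the weeks, given below. Ereg, the gene for epiregulin, was the only ligand among the members called there in single weeks. It went from 12.0, 12.53 and 14.1 CPM to 32.6, 36.3 and 47.7 CPM at 2 h in the 1 week cells, and from 12.4, 17.9 and 24.6 CPM to 41.9, 42.1 and 44.6 CPM in the 2 week cells. In both weeks the groups were apart. At 3 weeks it started from 26.1, 39.1 and 49.7 CPM and stood at 44.5, 58.0 and 59.5 CPM at 2 h, with overlap. The log2 differences were 1.55 ± 0.29 at 1 week (adjusted p = 0.00183), 1.18 ± 0.24 at 2 weeks (adjusted p = 0.00525) and 0.61 ± 0.25 at 3 weeks (adjusted p = 0.592) by edgeR's quasi-likelihood test. At 24 h Ereg stood between 15.2 and 33.2 CPM over the 9 samples of all 3 weeks. The lowest of the 9 rechallenge 2 h samples was 32.6 CPM and 3 of the other 36 samples of the line were higher. Both calls were lost without replicate 1 or replicate 2, and that at 2 weeks also with only the compared groups fitted, with differences of 1.32 to 1.73 and 1.00 to 1.51 over all alternatives. In YUMM2.1 Ereg was measured at only 0 to 11.8 CPM, and no rechallenge difference was called.

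Areg and Tgfa, which encodes transforming growth factor alpha, were near the limit of these libraries. In YUMM2.1 Areg ran from 1.54 to 24.3 CPM, with 1 to 42 counts per sample. Its 2 h rechallenge samples were 11.2, 11.3 and 16.5 CPM at 1 week, 16.5, 19.2 and 24.0 CPM at 2 weeks and 14.7, 18.6 and 20.8 CPM at 3 weeks, against 6.06, 8.93 and 24.3 CPM before rechallenge at 3 weeks. The 3 week groups overlapped through the low-depth sample alone, at 24.3 CPM (7 counts). The 3 week difference of 0.89 ± 0.40 had an adjusted p of 0.359 by edgeR's quasi-likelihood test. In CT26 Areg had at most 9 counts and was at 0 in 10 of 45 samples. Tgfa had at most 9 counts in YUMM2.1 and 4 in CT26, with 0 in 8 and 18 of 45 samples, so a change in it was not detectable at this depth.

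Errfi1, whose product inhibits the EGF receptor kinase, rose in both lines. In YUMM2.1 it went from 8.45, 12.7 and 13.6 CPM to 24.1, 36.7 and 38.5 CPM at 2 h in the 1 week cells. In the 2 week cells it went from 11.0, 13.9 and 18.7 CPM to 13.7, 22.1 and 26.9 CPM, and in the 3 week cells from 10.4, 15.8 and 19.9 CPM to 36.5, 37.8 and 50.1 CPM. The groups were apart at 1 and 3 weeks and overlapped at 2 weeks. The log2 differences were 1.46 ± 0.27 (adjusted p = 0.000978), 0.60 ± 0.27 (adjusted p = 0.767) and 1.33 ± 0.28 (adjusted p = 0.00350) by edgeR's quasi-likelihood test. Both calls were lost without replicate 1 or replicate 2 or with only the compared groups fitted, with differences of 1.36 to 1.55 and 1.24 to 1.40 over all alternatives.

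In CT26 Errfi1 went from 18.8, 24.0 and 33.9 CPM to 55.1, 59.3 and 89.0 CPM at 2 h in the 1 week cells, and from 17.7, 19.8 and 31.5 CPM to 45.6, 64.6 and 92.3 CPM in the 2 week cells, without overlap. In the 3 week cells it went from 23.2, 41.7 and 71.5 CPM to 64.8, 94.6 and 111 CPM, with overlap. The log2 differences were 1.27 ± 0.30 (adjusted p = 0.0410), 1.49 ± 0.28 (adjusted p = 0.00137) and 0.87 ± 0.28 (adjusted p = 0.389) by edgeR's quasi-likelihood test. The 1 week call rested on the low-depth sample and on each replicate: without that sample the difference was 1.19 and the adjusted p 0.109, and it was lost without any 1 of the 3 replicates, with library totals (adjusted p = 0.0566) and with only the compared groups fitted. The 2 week call was lost without replicate 2. The untreated naive CT26 cells stood at 31.6, 41.8 and 48.3 CPM and the 3 week controls at 21.9, 21.9 and 26.8 CPM, a difference of -0.80 ± 0.28 that was not called (adjusted p = 0.205) but was called with only the compared groups fitted (adjusted p = 0.0394).

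Dusp6, which encodes the cytoplasmic ERK phosphatase, was called in 1 week and 1 line when weeks were tested singly. In YUMM2.1 it went from 107, 116 and 142 CPM to 137, 163 and 182 CPM at 2 h in the 1 week cells, from 105, 106 and 113 CPM to 144, 151 and 159 CPM in the 2 week cells and from 66.1, 101 and 111 CPM to 166, 174 and 190.3 CPM in the 3 week cells. The groups overlapped at 1 week and were apart at 2 and 3 weeks. The 3 week log2 difference was 0.83 ± 0.15 (adjusted p = 0.000330 by edgeR's quasi-likelihood test). Its lowest sample before rechallenge, 66.1 CPM, was the low-depth sample with 19 counts, and without it the difference was 0.72 (adjusted p = 0.00378). With only the compared groups fitted the call was lost (adjusted p = 0.0590). The 1 and 2 week differences of 0.42 ± 0.14 and 0.48 ± 0.14 had adjusted p values of 0.214 and 0.135. In CT26 the 2 h values were 44.97, 50.1 and 56.5 CPM, 47.7, 51.3 and 62.2 CPM, and 32.6, 45.8 and 62.8 CPM at 1, 2 and 3 weeks, against 23.2 to 39.96 CPM over the 9 samples before rechallenge. The groups were apart at 1 and 2 weeks and overlapped at 3 weeks. No single week was called there, with adjusted p values of 0.345 at 1 week and 0.122 at 2 weeks.

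In YUMM2.1 Dusp4, Spry2, Spry4 and Spred1 were not called at 2 h of rechallenge in any week, and neither were Spry4 and Spred1 in CT26, where the other two were not tested. Dusp4, the gene for a nuclear ERK phosphatase, ran from 2.54 to 13.9 CPM in YUMM2.1, and its highest group mean, 10.7 CPM, was that of naive cells 24 h after a first dose. Spry2 and Spry4 (chromosome 18, 38586247 to 38601415, minus strand) encode Sprouty inhibitors. Spry2 ran from 1.37 to 23.2 CPM and Spry4 from 1.27 to 12.6 CPM in YUMM2.1, with medians of 8 and 7 counts per sample. Spry4 in CT26 was 4.01, 5.31 and 9.41 CPM before rechallenge and 7.02, 11.1 and 28.1 CPM at 2 h in the 2 week cells, with overlap and an adjusted p of 0.503 by edgeR's quasi-likelihood test. Spred1 in YUMM2.1 ran from 8.28 to 43.7 CPM with its 2 h groups overlapping those before rechallenge in every week. With medians of 7 to 13 counts per sample for Spry4 in YUMM2.1, Spred1 in CT26 and Spry4 in CT26, only large changes could be detected.

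By week, the members called at 2 h of rechallenge were 2 of 9 in YUMM2.1 at 1 week (background 0.615%), 0 of 9 at 2 weeks (3 unadjusted, 1 by DESeq2, background 0.428%) and 3 of 9 at 3 weeks (background 1.08%). In CT26 they were 2 of 6 at 1 week (background 0.376%), 2 of 6 at 2 weeks (background 0.305%) and 0 of 6 at 3 weeks (3 unadjusted, 0 by DESeq2, background 0.0117%, which is 1 gene of 8516). All members called were higher. The CT26 3 week cells before rechallenge included the low-depth sample, and its Ereg level of 49.7 CPM was the highest of the 3.

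The mean of the 3 weekly differences, a comparison chosen after seeing the data, gave each gene 9 samples before and 9 at 2 h after rechallenge. In YUMM2.1 3 of 9 members were called, all higher, against 2.82% of all genes: Hbegf at 0.82 ± 0.10 (1.76-fold, adjusted p = 3.66e-08), Errfi1 at 1.13 ± 0.16 (2.19-fold, adjusted p = 1.66e-06) and Dusp6 at 0.58 ± 0.08 (adjusted p = 1.73e-06) by edgeR's quasi-likelihood test. In CT26 4 of 6 were called, all higher, against 0.986% of all genes: Hbegf at 0.74 ± 0.19 (adjusted p = 0.0427), Ereg at 1.11 ± 0.15 (2.16-fold, adjusted p = 1.96e-06), Errfi1 at 1.21 ± 0.16 (2.31-fold, adjusted p = 2.18e-06) and Dusp6 at 0.60 ± 0.13 (1.51-fold, adjusted p = 0.00722). The members tested had a median difference of 0.19 in YUMM2.1 and 0.67 in CT26, against 0.01 in both lines over all genes tested. The 3 YUMM2.1 calls and those of Ereg and Errfi1 in CT26 held under all alternatives. Those of Hbegf and Dusp6 in CT26 were lost without replicate 1 or replicate 2, and Hbegf also with only the compared groups in the fit. Without the low-depth samples the CT26 differences were 0.95 for Hbegf (adjusted p = 0.00181) and 0.55 for Dusp6 (adjusted p = 0.0256) by edgeR's quasi-likelihood test. The plot of differences by gene sets these means beside the first dose.

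**Figure D2:**
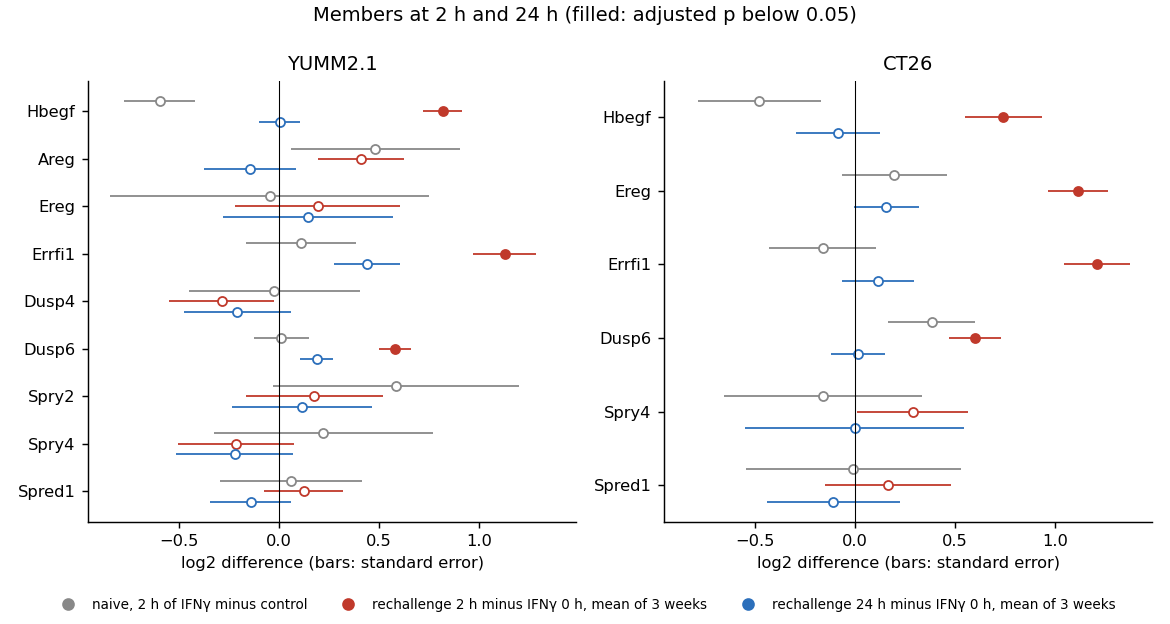
Log2 difference (x axis, with SE bars) of each member tested, for the first IFNγ dose at 2 h (grey), the mean of the 3 weekly rechallenges at 2 h (red) and at 24 h (blue), by line, with filled points called by edgeR's quasi-likelihood test. The filled points are red only: Hbegf, Errfi1 and Dusp6 in YUMM2.1, and Hbegf, Ereg, Errfi1 and Dusp6 in CT26.

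At 24 h of rechallenge no member was called in any week. In YUMM2.1 0 of 9 were called at 1 week (2 unadjusted, 0 by DESeq2, background 1.42%), 0 of 9 at 2 weeks (0 unadjusted, 0 by DESeq2, background 0.615%) and 0 of 9 at 3 weeks (0 unadjusted, 0 by DESeq2, background 0%) by edgeR's quasi-likelihood test. In CT26 0 of 6 were called at 1 week (0 unadjusted, 0 by DESeq2, background 1.32%), at 2 weeks (1 unadjusted, 0 by DESeq2, background 0.658%) and at 3 weeks (0 unadjusted, 0 by DESeq2, background 0%). For the mean of the weeks, chosen after seeing the data, 0 of 9 were called in YUMM2.1 (2 unadjusted, 0 by DESeq2, background 1.07%) and 0 of 6 in CT26 (0 unadjusted, 0 by DESeq2, background 1.34%). For the mean of the weeks the IFNγ-induced Gbp2 was still up at that time, by 1.76 in YUMM2.1 and 2.09 in CT26. It was called at 1 and 2 weeks in both lines but not at 3 weeks. There it was -0.17 in YUMM2.1 (adjusted p = 0.9995) and 0.08 in CT26 (adjusted p = 0.98) by edgeR's quasi-likelihood test.

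The fall between 2 h and 24 h was tested directly, as a mean over the weeks chosen after seeing the data. In YUMM2.1 Hbegf fell by 0.81 ± 0.10 on the log2 scale (adjusted p = 8.62e-08), Errfi1 fell by 0.69 ± 0.15 (adjusted p = 0.00641) and Dusp6 fell by 0.39 ± 0.08 (adjusted p = 0.00255), which are 3 of 9 members against 1.10% of all genes by edgeR's quasi-likelihood test. In CT26 Errfi1 fell by 1.10 ± 0.16 (adjusted p = 7.06e-06), Ereg fell by 0.96 ± 0.14 (adjusted p = 1.13e-05), Hbegf fell by 0.82 ± 0.18 (adjusted p = 0.00966) and Dusp6 fell by 0.59 ± 0.12 (adjusted p = 0.00495), which are 4 of 6 against 1.02%. This comparison shares its 2 h samples with the rise, so the 2 are not independent. Without replicate 1 or replicate 2 the calls of Errfi1 and Dusp6 in YUMM2.1 and of Hbegf and Dusp6 in CT26 were lost.

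Chronic cells at 2 h of rechallenge after 3 weeks were also set against naive cells at 2 h of a first dose. In YUMM2.1 4 of 9 members were higher in the chronic cells, where 8.12% of all genes were called: Hbegf by 1.56 ± 0.17 (adjusted p = 2.16e-09), Errfi1 by 1.30 ± 0.25 (adjusted p = 0.000497), Areg by 1.13 ± 0.36 (adjusted p = 0.0423) and Dusp6 by 0.54 ± 0.13 (adjusted p = 0.00818) by edgeR's quasi-likelihood test. Areg, at 7.98, 8.10 and 8.38 CPM in naive and 14.7, 18.6 and 20.8 CPM in chronic cells, did not overlap, but its call was lost without any 1 replicate, without the filter on low counts or with only the compared groups fitted. The Dusp6 call was lost without replicate 1 or replicate 2. In CT26 3 of 6 were higher, where 10.3% of all genes were called: Ereg by 1.54 ± 0.24 (adjusted p = 9.62e-06), Errfi1 by 1.32 ± 0.26 (adjusted p = 0.000492) and Hbegf by 1.35 ± 0.30 (adjusted p = 0.00194), the last lost without replicate 1. At 24 h 0 of 9 differed in YUMM2.1 (0 unadjusted, 0 by DESeq2, background 0.813%) and 1 of 6 in CT26 (background 2.48%), which was Ereg at 1.29 ± 0.32 (adjusted p = 0.0150), lost without replicate 1 or replicate 2 or with only the compared groups fitted. Controls kept for 3 weeks and naive controls did not yield a call, with 0 of 9 in YUMM2.1 (0 unadjusted, 0 by DESeq2, background 0.511%) and 0 of 6 in CT26 (2 unadjusted, 0 by DESeq2, background 0.904%). The map of differences shows the calls of the first dose, chronic exposure, single-week rechallenge and control comparisons together.

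**Figure D3:**
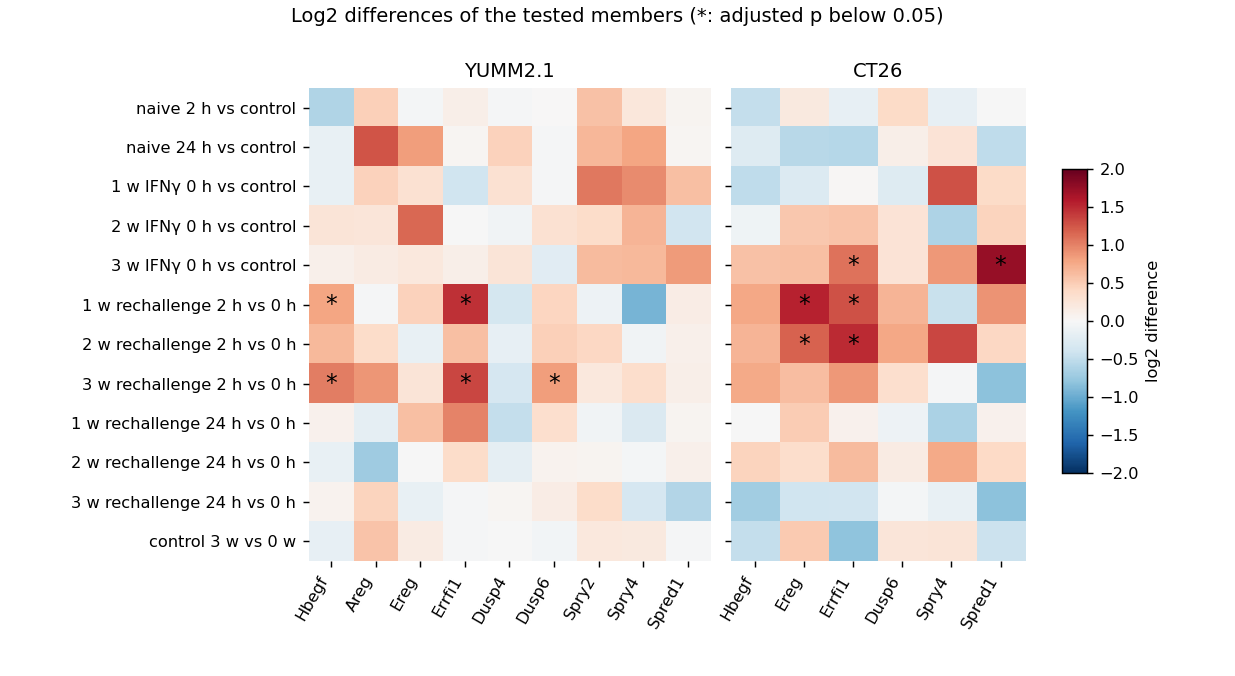
Log2 difference (colour) of each member tested, by line, for the first dose, chronic exposure against control, rechallenge at 2 h and 24 h against no rechallenge in each week, and 3 week against naive controls, with an asterisk on differences called by edgeR's quasi-likelihood test. The asterisks lie in the rechallenge 2 h comparisons, except those on Errfi1 and Spred1 in CT26 at 3 weeks of IFNγ against control.

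Whether the 2 h response itself differed between chronic and naive cells was tested as the difference of the differences. In YUMM2.1 Hbegf was the 1 member of 9 called: its response after 3 weeks exceeded the naive response by 1.62 ± 0.25 on the log2 scale (adjusted p = 0.000111 by edgeR's quasi-likelihood test, background 0.115%). The naive cells moved from 50.9, 67.7 and 71.5 CPM to 35.3, 37.0 and 53.0 CPM and the chronic cells from 51.6, 66.1 and 68.5 CPM to 118, 123 and 136 CPM. The call was lost without replicate 2, and the value ran from 1.46 to 1.98 over all alternatives. For the mean of the 3 weeks, chosen after seeing the data, it was 1.42 ± 0.20 (adjusted p = 1.42e-05, background 0.146%) and held under all alternatives. The same 3-week difference was 1.22 ± 0.39 for Errfi1 (adjusted p = 0.379) and 0.82 ± 0.20 for Dusp6 (adjusted p = 0.105, 0.0223 by DESeq2), so neither was called by edgeR's quasi-likelihood test. In CT26 0 of 6 were called at 3 weeks (2 unadjusted, 0 by DESeq2, background 0.211%). For the mean of the weeks 0 of 6 were called there (3 unadjusted, 1 by DESeq2, background 0.153%), and Errfi1 came nearest at 1.37 ± 0.32 (adjusted p = 0.0511, 0.0221 by DESeq2). At 24 h the response difference was called for 0 of 9 in YUMM2.1 (0 unadjusted, 0 by DESeq2, background 0.615%) and 0 of 6 in CT26 (0 unadjusted, 0 by DESeq2, background 1.20%).

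Before any treatment the lines differed in 7 of 9 members tested, where 46.0% of the 10339 genes tested in the fit over both lines were called. The 9 members included Areg, Dusp4 and Spry2, which passed the filter on low counts in that fit but not in CT26 alone. Dusp6 stood at 111, 124 and 125 CPM in YUMM2.1 and 22.9, 23.9 and 30.04 CPM in CT26, a log2 difference of 2.04 ± 0.18 (adjusted p = 1.98e-16 by edgeR's quasi-likelihood test). Hbegf was higher in YUMM2.1, at 50.9, 67.7 and 71.5 against 16.5, 19.7 and 21.7 CPM, by 1.56 ± 0.23 (adjusted p = 1.35e-08). Ereg and Errfi1 were higher in CT26: Ereg stood at 13.02, 14.8 and 20.6 CPM there and was lower in YUMM2.1 by a difference of -2.64 ± 0.51 (adjusted p = 9.61e-06), and for Errfi1 the difference was -1.56 ± 0.28 (adjusted p = 2.46e-06). Spred1 (1.39 ± 0.44, adjusted p = 0.00683), Areg (1.55 ± 0.62, adjusted p = 0.0341) and Spry2 (1.97 ± 0.83, adjusted p = 0.0456) were higher in YUMM2.1 in edgeR's quasi-likelihood test, but Areg and Spry2 were not called by DESeq2 or without any 1 replicate, and Spred1 was not called without replicate 1. The plot of untreated naive cells gives every sample.

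**Figure D4:**
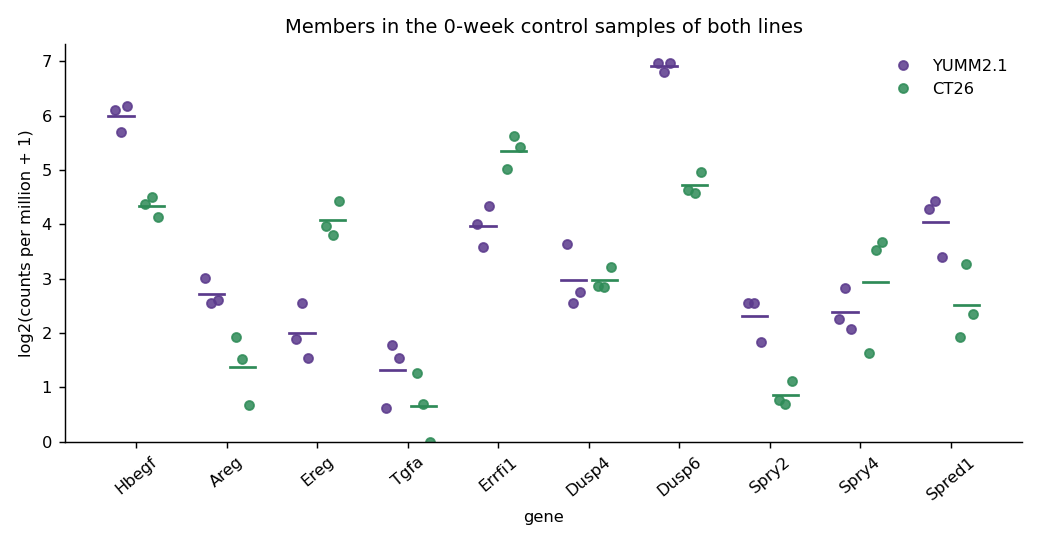
Level (log2 of CPM + 1) of each of the 10 members in the 3 untreated naive samples of each line, 1 point per sample. Dusp6 and Hbegf lie higher in YUMM2.1, and Ereg and Errfi1 lie higher in CT26, with no overlap between the lines for these 4 genes. The share of all genes without overlap was not counted, and 46.0% of all genes tested were called between the lines.

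No member's response differed between the lines by test. Areg, Dusp4 and Spry2 had medians of only 1, 4 and 1 counts per sample in CT26, so only large differences could be detected for them. The comparison of YUMM2.1 with CT26 called 0 of 9 members for the naive response at 2 h (1 unadjusted, 0 by DESeq2, background 0%), for the naive response at 24 h (0 unadjusted, 0 by DESeq2, background 0.0870%), for 3 weeks of exposure (2 unadjusted, 0 by DESeq2, background 0.106%), for rechallenge at 2 h after 3 weeks (0 unadjusted, 0 by DESeq2, background 0.193%) and for the mean rechallenge at 2 h (1 unadjusted, 0 by DESeq2, background 0.213%), all by edgeR's quasi-likelihood test. The rise of Ereg in CT26 and not in YUMM2.1 is therefore not shown to be a difference between lines, since the test of that difference gave -0.92 ± 0.40 (adjusted p = 0.733).

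Other genes of the pathway were followed as 5 lists, and for the mean rechallenge at 2 h their counts stand beside 2.82% of all genes called in YUMM2.1 and 0.986% in CT26. There 0 of 4 genes of ligand shedding and 0 of 18 of the RAS-ERK core were called in YUMM2.1, and 0 of 3 and 0 of 15 in CT26, with median log2 differences between 0.20 and 0.26 for these 4 counts. Of other EGF-family ligands and ERBB receptors 0 of 3 were called in YUMM2.1 and 1 of 2 in CT26, which was Btc, the gene for betacellulin. It rose from 2.07 to 6.92 CPM at 1 week, from 2.68 to 6.84 CPM at 2 weeks and from 3.01 to 12.9 CPM at 3 weeks (group means), with a log2 difference of 1.56 ± 0.29 (adjusted p = 0.000714 by edgeR's quasi-likelihood test), but it had at most 17 counts in a sample. Of other phosphatases and feedback genes 0 of 11 were called in YUMM2.1 and 1 of 9 in CT26, which was Dusp5, a nuclear ERK phosphatase gene with at most 21 counts per sample, at 1.81 ± 0.48 (adjusted p = 0.0491). Of genes transcribed downstream of ERK 3 of 10 were called in YUMM2.1 and 0 of 10 in CT26.

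The 3 downstream genes in YUMM2.1 were Egr1, an immediate-early transcription factor, Plaur, the urokinase receptor, and Myc. At 2 h of rechallenge Egr1 stood at 24.1, 35.3 and 75.1 CPM at 1 week, 5.48, 6.86 and 8.27 CPM at 2 weeks and 22.2, 29.4 and 54.0 CPM at 3 weeks, from 3.85 to 10.0, 2.67 to 4.81 and 3.48 to 12.1 CPM before rechallenge. The groups were apart in every week. Plaur went from 86.96, 98.3 and 102 CPM to 161, 220 and 227 CPM at 3 weeks. There its response exceeded the naive response by 1.16 ± 0.23 (adjusted p = 0.0102 by edgeR's quasi-likelihood test). For the mean of the weeks, chosen after seeing the data, that response difference was called for 0 of the 10 downstream genes. Plaur was also called at 2 weeks (0.87 ± 0.15) but not at 1 week. At 1 week the groups overlapped, at 69.7 to 113 CPM before rechallenge and 104 to 119 CPM at 2 h. Over the weeks the log2 differences were 1.82 ± 0.28 for Egr1 (adjusted p = 1.72e-05), 0.70 ± 0.09 for Plaur (adjusted p = 3.39e-07) and 0.66 ± 0.13 for Myc (adjusted p = 0.000744) by edgeR's quasi-likelihood test. None of the 3 was called 2 h after a first dose. Plaur was already called under chronic exposure without rechallenge, at 2 weeks (0.73 ± 0.16, adjusted p = 0.00660) and at 3 weeks (0.64 ± 0.17, adjusted p = 0.0444). At 24 h of rechallenge Egr1 was called in the 1 week cells (2.11 ± 0.45, adjusted p = 0.00317), as was Plaur (0.65 ± 0.16, adjusted p = 0.0179).

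**Figure D5:**
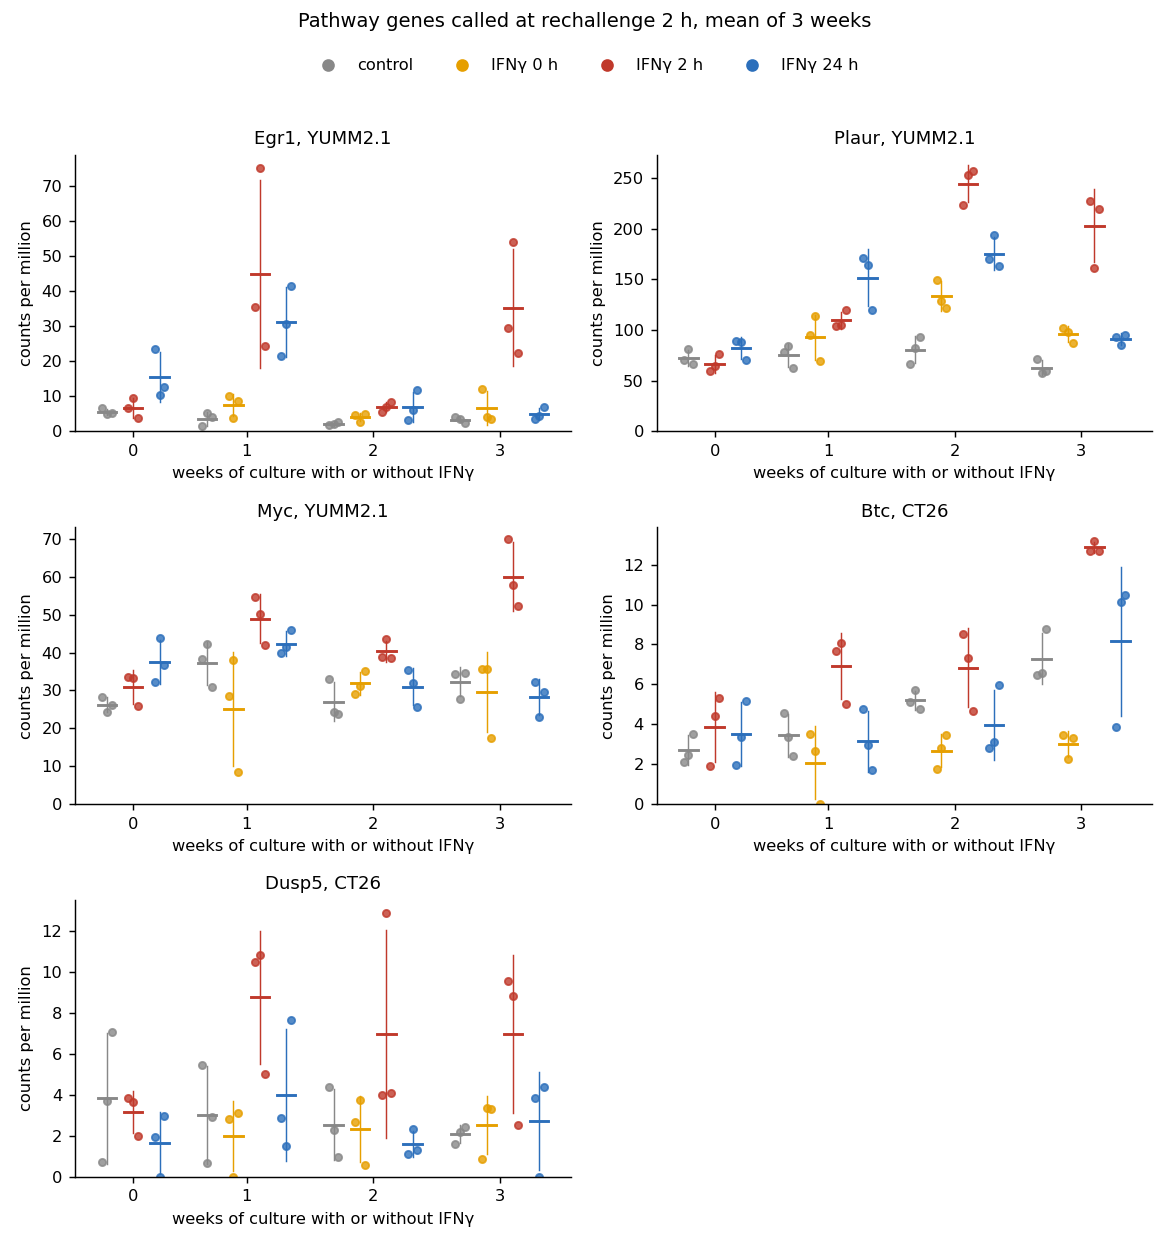
Level (CPM, linear axis from 0) of Egr1, Plaur and Myc in YUMM2.1 and of Btc and Dusp5 in CT26 in each of the 15 groups, with 3 points per group, the mean as a line and the SD as bars. Egr1 peaks at rechallenge 2 h at 1 and 3 weeks but not at 2 weeks, when its 3 samples were 5.48 to 8.27 CPM.

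Across the 15 group means of a line, described here without a test and sharing the depth and handling of each group, Errfi1 followed Dusp6 in both YUMM2.1 (Pearson's r = 0.808) and CT26 (0.811). Hbegf followed Errfi1 (0.724 in YUMM2.1 and 0.740 in CT26), and Ereg followed Errfi1 in CT26 (0.843). Among the genes with the pattern most like that of Hbegf were Vasn (0.874) and Junb (0.833) in YUMM2.1 and Ccn1 (0.850), Nab2 (0.845) and Ptprs (0.832) in CT26. For Errfi1 they were Zyx (0.928), Myc (0.925) and Uba1 (0.915) in YUMM2.1 and Hmga2 (0.946), Prrc2b (0.902) and Otud4 (0.887) in CT26. For Dusp6 they were Gpat3 (0.879), Scyl2 (0.876) and Ndc1 (0.872) in YUMM2.1 and, among others, Junb (0.907) and Runx1 (0.797) in CT26, and for Ereg in CT26 Ptgs2 (0.915), Iqgap1 (0.905) and Smad1 (0.903).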

How the data were processed

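The deposited matrix held raw read counts per gene, whole numbers per the file, which the authors made from 3′ digital gene expression libraries. The submitters' processing notes name Salmon 0.13.1 and the mm10 build, and the annotation release and any use of molecular identifiers were not given in the sources used here. No further normalization by the authors was applied to these counts. Gene symbols came from GENCODE M21 (53668 of 53697 identifiers matched). Counts were scaled by TMM to CPM, genes with low counts were removed with edgeR's filterByExpr, and edgeR 4.0.16 (quasi-likelihood test, R 4.3.3) was fitted over all 15 groups of each line or over both lines. In each line 16 comparisons were tested, with 5 between lines, and 4 and 1 were added after seeing the data. The alternatives were DESeq2 1.42.0, library totals, no filter, only the compared groups, a replicate block, each replicate left out, low-depth samples left out and the 0-week control. Fits were tested on simulated data. Calls over the members tested are counted in every comparison, values are given for those called or nearest to a call, and genes of the pathway lists are named only where called. The members and lists were chosen with earlier results of these data known. The study left out some samples as outliers without naming them, so the values here may include those, since all 90 samples were kept, and no 2 samples of a group held identical values. With medians of 1403265 and 1318011 counts per sample, 1 count is close to 1 CPM, and genes under about 10 CPM carry large counting errors. Some genes of the marker, control and pattern lists are not reported here.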

Additional observations from a re-analysis of the deposited data

Results flagged for a closer look

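The 2 h response of Hbegf in YUMM2.1 differed between chronic and naive cells by a test of the difference itself. After 3 weeks of IFNγ the response exceeded the naive one by 1.62 on the log2 scale (SE 0.25, adjusted p = 0.000111, edgeR's quasi-likelihood test), with naive cells at 35.3 to 53.0 CPM and chronic cells at 118 to 136 CPM. For the mean over the 3 weeks the difference was 1.42 (SE 0.20, adjusted p = 1.42e-05), a comparison chosen after seeing the data. Taken alone, the rechallenge difference was called at 1 and 3 weeks but not at 2 weeks (adjusted p = 0.0560), and the naive difference of -0.60 was not called (adjusted p = 0.380), with 50.9 to 71.5 CPM before and 35.3 to 53.0 CPM after the first dose. The 2 values share the naive samples and the 3 week samples and are not independent. Replicate groups of 3 samples were not tested for single outlying samples.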

How the results depend on the processing

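Of 42 differences called, 39 were also called by DESeq2, 41 with library totals, 39 without the filter on low counts, 41 without the low-depth samples and 29 of 39 with only the compared groups fitted, and none changed direction. The replicate numbers paired the samples weakly at most. The median correlation of same-numbered deviations was 0.00195 in YUMM2.1 and 0.0139 in CT26, against -0.00542 and -0.01 for differently numbered ones. Of same-numbered pairs 67 and 87 of 315 exceeded 0.1. In all, 17 and 24 of 45 samples correlated best with their own number, where 1 in 3 would with no pairing. With the replicate block 0 of 42 called differences were lost and 0 of 46 counts moved by over 1.5 times, but Spry4 was called in addition in CT26 for chronic against naive cells at 2 h (1.31, adjusted p = 0.0486). Leaving out a replicate leaves 2 samples per group, and 21, 20 and 37 of the 42 calls were kept without replicates 1, 2 and 3. By DESeq2 the members called changed from 2 to 1 in CT26 at 3 weeks, from 0 to 1 in CT26 for the mean response difference at 2 h, from 0 to 1 in YUMM2.1 at 2 h of rechallenge after 2 weeks and from 1 to 2 in YUMM2.1 for the response difference at 2 h. With library totals they changed from 2 to 1 in CT26 at 2 h after 1 week and from 1 to 2 in YUMM2.1 for the response difference at 2 h. Without the filter they changed from 0 to 1 in CT26 at 2 h after 3 weeks and for the mean response difference. With only the compared groups they changed in CT26 from 2 to 1 at 2 h after 1 week and after 2 weeks, from 2 to 0 at 3 weeks, from 1 to 0 in chronic against naive cells at 24 h and from 0 to 1 between controls, and in YUMM2.1 from 2 to 0 at 2 h after 1 week and from 3 to 1 after 3 weeks. Without the low-depth samples CT26 at 2 h after 1 week changed from 2 to 1, and with the 0-week control CT26 at 3 weeks changed from 2 to 1, where both calls were lost and Ereg was gained. With 1 replicate left out the counts ran in YUMM2.1 from 0 to 2 at 2 h after 1 week, 0 to 1 after 2 weeks, 1 to 3 after 3 weeks, 2 to 3 for chronic against naive cells at 2 h, 0 to 1 for the response difference and 1 to 4 for 24 h against 2 h, and in CT26 from 0 to 1 at 3 weeks, 0 to 1 at 2 h after 1 week, 0 to 2 after 2 weeks, 0 to 1 for chronic against naive cells at 24 h, 2 to 4 for the mean rechallenge at 2 h and 2 to 4 for 24 h against 2 h. Some differences that were not called turned sign. For the naive response at 2 h Dusp6 in YUMM2.1 was -0.0022 with library totals, and with 1 replicate left out the range was -0.038 to 0.10 for Dusp6, -0.96 to 0.61 for Ereg and -0.11 to 0.39 for Errfi1 in YUMM2.1, and -0.16 to 0.55 for Ereg and -0.38 to 0.064 for Errfi1 in CT26. For Ereg in YUMM2.1 at rechallenge 2 h it was -0.57 to 0.00076 after 2 weeks, -0.042 to 0.66 after 3 weeks and -0.014 to 0.27 for the mean. The cause of these changes was not tested. The group means of 5 of 120 levels moved by over 1 SD with library totals. The depth limits what can be said of Areg, Tgfa, Dusp4, Spry2, Spry4, of Ereg in YUMM2.1 and of Spred1 in CT26, where a sample often held under 20 counts.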
